A study of Mus musculus with 6 samples.

Results

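Accessible regions that lay over protein-coding exons, away from the start sites annotated for protein-coding transcripts, were examined in skeletal stem and progenitor cells (SSPCs) of young and middle-aged mice. Merging the peaks of 6 ATAC-seq libraries, with an overlap of 1 bp as the minimum, gave 63840 regions. The members were chosen by the peak calls themselves and by annotation. A region was kept when every library had a peak in it, when it lay more than 1 kb from each transcription start site (TSS) of a protein-coding transcript, and when its midpoint fell in an annotated coding sequence (CDS) interval. Of 22403 regions called in all 6 libraries, 12031 lay beyond 1 kb from a TSS, and 168 of these passed the midpoint rule, which is 0.263% of all merged regions and 1.4% of the distal regions called throughout. That share was near the background. CDS made up 1.1% of all bases beyond 1 kb from a TSS. Among distal regions called in fewer libraries, the share ran from 1.32% (4 libraries) to 1.63% (1 library). The 168 regions sat in 166 genes. Cacna1a and Rasip1 each held 2 of them, and none lay on chromosome X or Y. The cells came from tibial and femoral marrow of untreated C57BL/6 mice, were grown in culture and were used at the first passage. There were 3 libraries labelled young and 3 labelled middle-aged. The labels speak of at least 3 mice but do not tie each library to its own mouse, so p-values describe the spread between these libraries.

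ATAC-seq uses a transposase that cuts and tags DNA where nucleosomes are absent or loosely held. Most strong sites mark promoters, and most others mark enhancers in introns or between genes. Coding exons can also carry binding sites for transcription factors, so the same bases then serve the genetic code and a regulatory site. CpG islands, stretches with many CG dinucleotides that usually escape DNA methylation, lie at most promoters but occur inside genes as well.

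The coding bases beneath the summits of 6 of the 8 strongest regions are shown first because they include windows rich and poor in CG dinucleotides. The G+C content of these windows ran from 57.1% to 80.8%, and that of the whole Ncam2 region was lower than that of its window, at 41.4%. Each window held up to 120 bases around the median summit of the 6 libraries, trimmed to the coding interval, and is written in the sense of the gene, 5′ to 3′, from mm10 (GRCm38). Capitals mark CG dinucleotides. The windows lay at chr9:20878348-20878467 (minus strand) for Angptl6, chr4:124751454-124751573 (plus strand) for Inpp5b, chr17:33817629-33817748 (plus strand) for Kank3, chr8:84639511-84639630 (plus strand) for Cacna1a, chr15:34530224-34530343 (plus strand) for Pop1 and chr16:81437649-81437739 (plus strand) for Ncam2. The Cacna1a window held 25 CG dinucleotides and the Ncam2 window, of 91 bases, held 2.
Angptl6: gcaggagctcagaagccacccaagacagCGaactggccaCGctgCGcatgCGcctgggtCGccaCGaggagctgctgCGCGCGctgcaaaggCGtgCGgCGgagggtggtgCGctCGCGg
Inpp5b: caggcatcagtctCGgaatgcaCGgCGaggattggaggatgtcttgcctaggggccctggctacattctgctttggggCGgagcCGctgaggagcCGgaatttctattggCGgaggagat
Kank3: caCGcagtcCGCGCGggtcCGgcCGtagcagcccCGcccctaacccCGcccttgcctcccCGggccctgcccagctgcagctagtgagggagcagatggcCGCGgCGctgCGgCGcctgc
Cacna1a: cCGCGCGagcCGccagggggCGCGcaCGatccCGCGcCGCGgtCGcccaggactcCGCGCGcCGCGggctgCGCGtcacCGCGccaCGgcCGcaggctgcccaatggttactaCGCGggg
Pop1: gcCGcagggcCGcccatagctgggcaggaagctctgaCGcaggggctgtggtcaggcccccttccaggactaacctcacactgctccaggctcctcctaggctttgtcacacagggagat
Ncam2: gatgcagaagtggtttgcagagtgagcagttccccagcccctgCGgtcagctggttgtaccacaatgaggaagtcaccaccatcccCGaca

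A second group is shown because these regions had some of the largest differences between the age groups, with Itgb4 and Gpr153 higher and Stag1, Bbx and Chsy1 lower in middle-aged cells. Capitals again mark CG dinucleotides. The windows lay at chr11:116005020-116005098 (plus strand) for Itgb4, chr4:152283299-152283418 (plus strand) for Gpr153, chr9:100866127-100866214 (plus strand) for Stag1, chr16:50225077-50225196 (minus strand) for Bbx and chr7:66125517-66125636 (plus strand) for Chsy1. The 2 windows of the higher regions held 10 and 14 CG dinucleotides, and each of the 3 windows of the lower regions held 3. The region with the largest positive difference, on C2cd5, is not printed and was not rich in CG dinucleotides. These counts therefore stand for no group.
Itgb4: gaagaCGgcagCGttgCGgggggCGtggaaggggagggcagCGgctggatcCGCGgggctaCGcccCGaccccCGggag
Gpr153: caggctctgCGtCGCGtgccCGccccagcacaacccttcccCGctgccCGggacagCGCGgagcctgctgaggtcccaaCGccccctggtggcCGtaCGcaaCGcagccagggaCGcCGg
Stag1: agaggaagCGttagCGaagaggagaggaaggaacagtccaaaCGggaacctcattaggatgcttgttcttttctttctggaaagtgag
Bbx: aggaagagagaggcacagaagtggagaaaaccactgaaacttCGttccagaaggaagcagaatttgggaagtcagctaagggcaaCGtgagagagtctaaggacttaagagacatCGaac
Chsy1: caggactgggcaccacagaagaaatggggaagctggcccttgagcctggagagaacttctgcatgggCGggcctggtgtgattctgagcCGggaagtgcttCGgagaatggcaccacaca

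The last group, chosen after the values were seen, shows coding bases that also spell a transcription factor motif close to the summit. Capitals mark an AP-1 match (TGANTCA) in Foxn2, Crybg3 and Tmem171, a CTCF match in Synpo2l and Prdm8, an NRF1 match in Apold1 and a PU.1 match (GAGGAAGT) in Map4. The windows lay at chr17:88462844-88462963 (plus strand) for Foxn2, chr16:59559787-59559906 (minus strand) for Crybg3, chr13:98692178-98692297 (minus strand) for Tmem171, chr14:20661076-20661195 (minus strand) for Synpo2l, chr5:98185424-98185543 (plus strand) for Prdm8, chr6:134983640-134983759 (plus strand) for Apold1 and chr9:110038039-110038158 (plus strand) for Map4.
Foxn2: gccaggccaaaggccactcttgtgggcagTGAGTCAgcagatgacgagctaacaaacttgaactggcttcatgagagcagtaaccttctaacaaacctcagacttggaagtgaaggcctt
Crybg3: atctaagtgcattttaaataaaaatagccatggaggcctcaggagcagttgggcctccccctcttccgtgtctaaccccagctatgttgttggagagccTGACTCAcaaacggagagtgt
Tmem171: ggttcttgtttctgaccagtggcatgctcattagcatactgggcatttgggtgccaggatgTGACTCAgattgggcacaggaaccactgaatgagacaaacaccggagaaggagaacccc
Synpo2l: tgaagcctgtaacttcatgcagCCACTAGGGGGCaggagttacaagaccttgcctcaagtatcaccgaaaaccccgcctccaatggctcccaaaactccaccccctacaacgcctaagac
Prdm8: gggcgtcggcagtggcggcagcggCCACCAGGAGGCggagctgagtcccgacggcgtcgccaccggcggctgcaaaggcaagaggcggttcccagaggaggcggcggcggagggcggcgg
Apold1: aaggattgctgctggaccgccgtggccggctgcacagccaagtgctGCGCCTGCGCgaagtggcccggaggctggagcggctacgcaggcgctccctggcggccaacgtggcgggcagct
Map4: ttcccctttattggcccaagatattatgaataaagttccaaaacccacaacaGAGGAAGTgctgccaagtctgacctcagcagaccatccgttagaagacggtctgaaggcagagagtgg

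The libraries differed in depth and in the length of their peak lists. The genome-wide background, in extended reads per base, ran from 1.65 in young 3 to 3.75 in young 1, and the lists held 27628 to 48344 peaks. At the exon regions the median summit pileup was 34, 37 and 20 reads in young 1, 2 and 3, and 35, 34 and 37 reads in middle-aged 1, 2 and 3. Young 3 was thus the shallowest library here too. Of the 94 distal coding-exon regions that were called in 5 libraries only, 71 lacked a peak in young 3. Of 10 SSPC marker genes, 4 to 8 per library had a TSS peak, and Lepr and Prrx1 had none in any library. Of 8 hematopoietic markers, 4 or 5 had one per library, with Ptprc, Spi1, Itgam and Cd68 in every library. Of 6 endothelial markers, 2 to 4 had one, and Tie1 and Emcn had none. The part of other cell types in the exon regions was not tested.

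The regions favoured the end of the reading frame. In the transcript used for each gene, 65 lay on the last coding exon, 88 on an internal one, 10 on the first and 5 on the only one. Together, last and only coding exons held 41.7% of the regions but 21.4% of the coding bases that lay more than 1 kb from a TSS. The stretch before the stop codon, decile 10 of the coding sequence, held 33 regions (19.6%) against 11.2% of those bases, and decile 1 held 6 (3.57%) against 6.02%. The regions differ from all coding bases in being accessible by rule, and no test was applied to these shares.

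**Figure D1:**
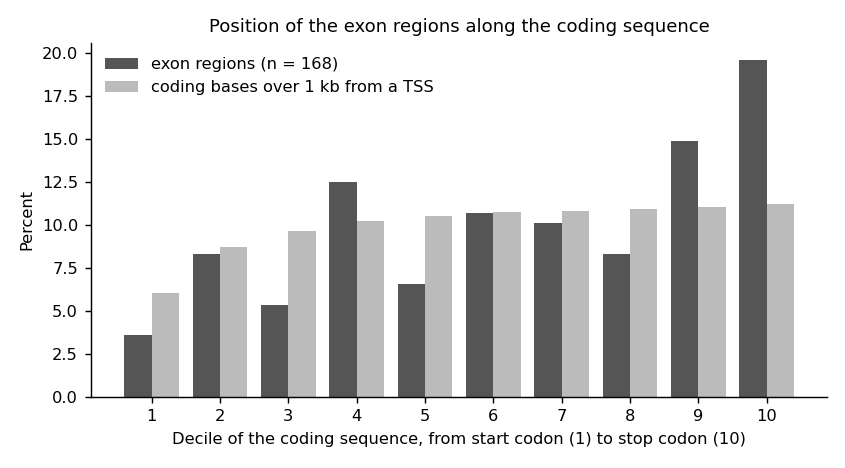
Percent of the 168 exon regions (dark bars, by midpoint) and of coding bases more than 1 kb from a protein-coding TSS (light bars) in each decile of the coding sequence, from start codon to stop codon. Deciles 9 and 10 hold 14.9% and 19.6% of the regions against 11.1% and 11.2% of the bases.

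Most regions spanned the coding interval beneath them. The merged regions were 266 to 1454 bp wide with a median of 482.5 bp, and the coding interval under the midpoint had a median of 216.5 bp. In 107 regions the interval was covered from end to end, 26 regions lay wholly inside it, and 35 did neither. A median of 55.9% of a region's bases were coding. The strongest summit was in a CDS interval in all 6 libraries at 109 regions, in 1 to 5 libraries at 39 and in none at 20. By library, 73.2% to 78.0% of the strongest summits were coding. Summits of a region lay within a median of 65 bp of each other across the libraries, and 154 regions had exactly 1 peak in each library.

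Annotation of further start sites touched some members. Among the 168 regions, 40 lay within 1 kb of the start of some GENCODE transcript of a type the rule did not consult, and 23 overlapped such a start. Inpp5b and Kank3 were 2 of these. Starts of RefSeq mRNAs, computed models included, lay within 1 kb of 9 regions. They overlapped the regions on Prdm2, Angptl6, Msra and Eps8l1 and lay 496 bp from that on Kank3 and 88 bp from that on Spns3. Starts of curated RefSeq mRNAs lay within 1 kb of 2 regions, on Msra and Psmc2, and the Msra region overlapped such a start. Both genes were named after the values were seen. The region on Sfi1, named for the same reason, was the only one with a second copy elsewhere in the primary assembly, on a contig not placed on a chromosome. Its fold enrichment was 2.79 ± 0.25 (SD, n = 6), with a pileup of 75 to 162 reads over a local background of 22.9 to 59.7, against library medians of 2.08 to 4.76 for the background of exon regions. How reads of the copies were counted is not given in the sources used here.

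The members were closest to the TSS limit at Rasip1 (1025 bp), Angptl6 (1059 bp) and the other Rasip1 region (1075 bp), with mean percentile ranks of 32.6, 97 and 70.4. Just outside it were coding-exon regions on Tk1 (996 bp), 2310034G01Rik (980 bp) and Magix (961 bp), with ranks of 47.4, 59.5 and 65.9. In all, 1014 regions called throughout had a midpoint in CDS but lay at 1 kb or less. The 94 regions called in 5 libraries were weaker, with a median mean rank of 36.3 against 60.9 for the members.

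Base composition divided the exon regions. Their median G+C content was 56.1% against 48.2% in 5456 intron regions that were also called in all libraries and lay beyond 1 kb from a TSS. The median ratio of observed to expected CpG was 0.484 against 0.212. A G+C content above 50% together with a CpG ratio above 0.6, a common definition of a CpG island, was met by 63 exon regions (37.5%) and by 99 intron regions (1.81%). The 63 are called CpG-rich here. This division was made after the data were seen, and exon and intron bases differ in composition in themselves, so no test was applied.

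**Figure D2:**
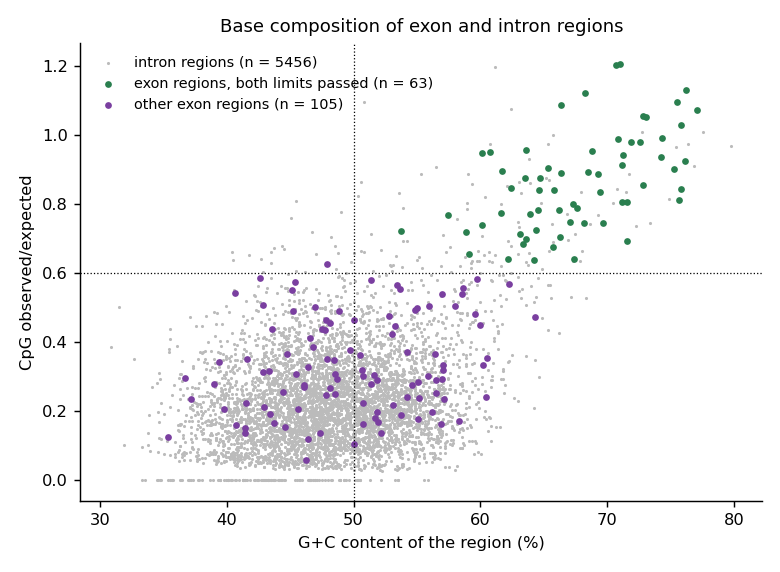
G+C content in percent (x axis) and ratio of observed to expected CpG (y axis) of each exon region (coloured points) and each intron region (grey points), with dotted lines at 50% and 0.6. The 63 exon regions above both lines form a cloud apart from most of the 5456 intron regions, and the other 105 exon regions lie among them.

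The CpG-rich regions were wider and sat on longer coding exons of genes with fewer exons. Their median width was 652 bp against 440 bp for the other 105, the coding interval had a median of 562 bp against 174 bp, and the host transcripts had a median of 5 coding exons against 14. Last coding exons held 37 of the 63 (58.7%) and 28 of the 105 (26.7%). The nearest protein-coding TSS was at a median of 5291 bp and 18562 bp, respectively.

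Many CpG-rich regions lay in genes without a peak at their own TSS. A host gene had a TSS peak in all 6 libraries for 91 of 166 genes (54.8%), in some for 22, and in none for 53 (31.9%). Among 3019 hosts of intron regions, 13.7% had no TSS peak in any library, and among all 21853 protein-coding genes 38.5% had none. Within the exon regions, 32 of 63 CpG-rich ones (50.8%) were on genes without a TSS peak, compared with 22 of 105 others (21%). From these 32, the following 3 examples were chosen after their values were seen and stand for no group. Neurod1, a transcription factor of neuronal differentiation, had fold enrichments of 4.84, 5.48 and 5.67 in young 1, 2 and 3 and of 4.80, 6.17 and 6.06 in middle-aged 1, 2 and 3 over its only coding exon. Tbr1, a T-box factor of cortical neurons, had 4.87, 5.95 and 4.07 in young and 5.61, 6.03 and 6.12 in middle-aged libraries over its last coding exon. Both genes had overlapping age groups. Phox2a, a factor of autonomic neurons, was weaker still, at 3.14, 3.63 and 3.38 in young and 3.97, 4.84 and 4.82 in middle-aged libraries. On the linear scale the Phox2a groups did not overlap. After centring, its log2 difference of 0.19 ± 0.13 (SE) had an adjusted p of 0.729 (limma).

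Short motifs were counted on both strands in 300 bp around the median summit. The GC box of SP and KLF factors (GGGCGG) was present in 37.5% of exon regions and 9.53% of intron regions, and in 73.0% of the CpG-rich and 16.2% of the other exon regions. The NRF1 motif occurred in 13 exon regions, all of them CpG-rich, and in 0.257% of intron regions. The AP-1 site (TGANTCA), bound by FOS and JUN dimers, was in 1 of 63 CpG-rich regions and in 24.8% of the others, close to the 25.5% of intron regions. PU.1 letters (GAGGAAGT), of the myeloid factor encoded by Spi1, were in 1.59% of CpG-rich and 19.0% of other exon regions and in 16% of intron regions. The GC box and NRF1 letters contain CG, and the AP-1 and PU.1 letters do not. Because CG content defined the classes, the shares by class are not independent of that definition. A RUNX site (TGTGGTT) was in 3.57% of exon regions and 14.5% of intron regions. The CTCF core was in 9.52% and 5.15%, and an ETS site (CCGGAAG), which shares GGAAG with the PU.1 letters, was in 8.33% and 2.53%. Shares for TEAD (GGAATG) were 13.1% and 16.9%, for RBPJ (GTGGGAA), the DNA-binding partner of Notch, 5.95% and 6.93%, and for CRE (TGACGTCA) 1.19% and 0.623%. The paired EBF and NFI sites were in 0 exon regions and in 0.513% and 0.055% of intron regions, shares at which fewer than 1 match would be counted among the exon regions. When the match itself had to lie in coding bases within 150 bp of the summit, it was found in 45 regions for the GC box, 17 for PU.1, 12 each for AP-1 and NRF1 and 9 for CTCF, as in the windows printed for Foxn2, Apold1 and Synpo2l. A match is a run of letters and says nothing of binding.

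The strongest regions lay near the top of every list. Percentile rank was taken by −log10 q within a library's list, with 100 for its strongest peak, and fold enrichment is the pileup over the local background, each with 1 added. The region on Prdm2, which encodes a histone methyltransferase, ranked 97.1, 97.6 and 97.6 in young 1, 2 and 3, with ranks of 98.0, 97.7 and 97.5 in middle-aged 1, 2 and 3. It covered coding exon 5 of 8 at chr4:143161617-143162548, but none of its 6 summits was coding. Angptl6, an angiopoietin-like secreted protein, had a region on the first of 5 coding exons with folds of 12.1, 15.8 and 13.5 in young and 16.9, 14.6 and 15.5 in middle-aged libraries. Its own GENCODE TSSs had no peak in any library. A start of a RefSeq model transcript fell within the Prdm2 region, and another within the Angptl6 region. Together these 2 regions supplied the best-ranked exon region of every library.

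Pop1, a protein subunit of RNase P, had the strongest region without CpG richness, on the last of 16 coding exons at chr15:34529762-34530478. The fold was 14.3, 14.7 and 12.6 in young and 15.5, 15.8 and 17.9 in middle-aged libraries, so the groups did not overlap on the linear scale, but the centred log2 difference was 0.01 ± 0.13 (SE). Its 6 summits lay within 19 bp of each other. Inpp5b, an inositol polyphosphate 5-phosphatase, gave 12.4, 15.2 and 15.2 in young and 19.3, 16.9 and 17.3 in middle-aged libraries on coding exon 6 of 23. For it, too, the separation was seen before centring, and the centred difference was 0.09 ± 0.13 (SE). Kank3, of a family of cytoskeletal adaptors, held a region of 971 bp largely within a coding exon of 1251 bp, with a mean fold of 13.5 ± 2.05 (SD, n = 6).

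Ncam2, a neural cell adhesion molecule, carried the most distant region, 236744 bp from a protein-coding TSS and on coding exon 4 of 16. Its fold was 16.6, 16.1 and 16.1 in young and 17, 18.4 and 15.1 in middle-aged libraries. These overlapped, and the mean of 16.6 ± 1.11 (SD, n = 6) was the highest among the 8 strongest regions by rank. The printed Ncam2 window holds the PU.1 letters in lower case. Sptbn4, a spectrin of axons, and Cacna1a, the pore subunit of P/Q calcium channels, each averaged a fold of 12.5, on coding exon 32 of 35 and on the last of 47. The other Cacna1a region, on coding exon 21, averaged 6.05 ± 1.4 (SD, n = 6), with coding summits in 2 libraries.

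The widest regions were not the strongest. Lor, which encodes loricrin of the cornified skin barrier, had a merged region of 1454 bp over almost the whole of its only coding exon, yet single peaks there were 340 to 1415 bp wide and folds ran from 4.66 to 6.66. Magi2, a synaptic scaffold, had 1251 bp on its last coding exon with folds of 9.32 to 11.8. Klhl31, a kelch protein of muscle, had 1084 bp but a coding summit in 1 library. Fam172a had 1037 bp with no coding summit. Peaks at Magi2 were wide in each library, 927 to 1251 bp, whereas those at Klhl31 were 205 to 923 bp.

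Lineage genes were looked up among the hosts. Of all 21853 protein-coding genes, 166 hosted an exon region and 3019 an intron region. At the exon share, lists as short as these can be empty without being unusual. No exon region lay on any of 23 SSPC genes, 23 osteogenic genes, 44 collagen genes, 30 hematopoietic genes or 51 matrix genes, although intron regions did lie on 3, 4, 12, 12 and 13 of them. The adipogenic list had Pparg, the master regulator of fat cells, with 1 region on coding exon 5 of 7. Its fold was 5.68, 7.57 and 6.42 in young and 6.21, 7.64 and 9.75 in middle-aged libraries, which overlapped (log2 difference 0.01 ± 0.16, SE). Of 36 Notch pathway genes, 2 had an exon region and 11 an intron region. Notch4, a receptor of endothelial cells, had one on its last coding exon with folds of 5.98, 7.21 and 4.24 in young and 7.86, 5.74 and 8.44 in middle-aged libraries. Its TSS had no peak in any library. Spen, a corepressor at Notch target genes, had one inside a coding exon of 8020 bp with 3.75, 5.49 and 6.04 in young and 6.13, 8.22 and 6.39 in middle-aged libraries.

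Spen was higher in each middle-aged library on the linear scale, and neither Notch gene passed the test after centring (log2 differences 0.12 ± 0.19 and 0.22 ± 0.18, SE, adjusted p 0.907 and 0.782, limma). Among 13 endothelial and 130 homeobox genes there was 1 host each. Vwf, the endothelial von Willebrand factor, had folds of 5.04 to 8.60, and Nkx2-2, a homeobox factor, had 5.30 to 7.81. Neither had a TSS peak. Larger families were represented by 9 of 130 actin, myosin, spectrin and microtubule motor genes, 5 of 482 zinc finger and KLF genes, 4 of 385 solute carriers and 2 of 117 chromatin regulators. Of these 20 regions 0 were called, and 9 were higher and 11 lower in middle-aged cells by sign alone.

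The first comparison set exon regions against intron regions within each library. The median percentile rank was higher for exon regions by 1.21, 2.51 and 0.437 points in young 1, 2 and 3 and by 3.65, 1.68 and 1.61 points in middle-aged 1, 2 and 3. The mean difference was 1.85 ± 1.11 points (SD, n = 6), positive in 6 of 6 libraries (exact sign permutation test, two-sided p = 0.03125, the smallest this design allows, adjusted p = 0.117 over 7 tests). Leaving out a library selected the regions anew. Without young 3 there were 240 exon regions, their mean difference was 0.236 points, and 3 of 5 libraries were positive. The exon regions of the full set had median folds of 5.97, 7.37 and 6.56 in young and 7.85, 7.82 and 7.72 in middle-aged libraries. For intron regions they were 6.01, 7.31 and 6.42 in the young group, then 7.51, 7.64 and 7.51. The log2 fold differed by 0.03 ± 0.03 (SD, n = 6, exact sign permutation test, two-sided p = 0.0625, adjusted p = 0.117). This difference was −0.02 over the 240 exon regions selected without young 3. Peaks were 13.8 ± 12.7 bp (SD, n = 6) wider on exons, in 5 of 6 libraries (same test, exact two-sided p = 0.0625, adjusted p = 0.117). None of these differences passed the adjusted threshold of 0.05.

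**Figure D3:**
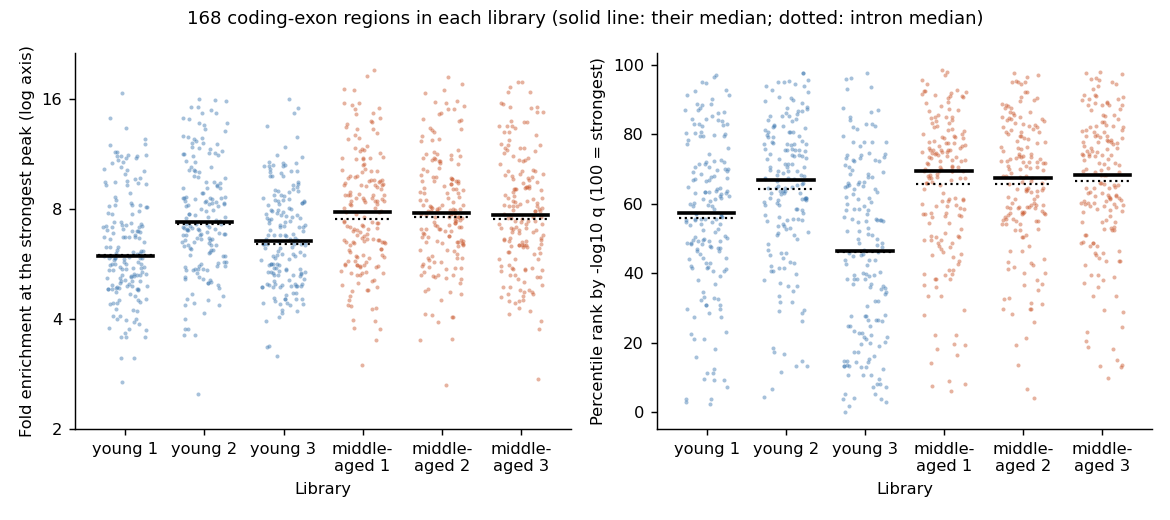
Fold enrichment at the strongest peak (left, log axis) and percentile rank by −log10 q (right) of each of the 168 exon regions in the 6 libraries, young in blue and middle-aged in orange. Solid lines are medians of the exon regions and dotted lines those of intron regions. Exon medians run from 5.97 to 7.85 for fold and from 46.5 to 69.4 for rank, close to the intron medians in each library.

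The second comparison asked whether the exon regions differed with age. Their median rank was 56.9 ± 10.2 in young and 68.4 ± 0.966 in middle-aged libraries (SD, n = 3 each), so that the middle-aged libraries stood 11.5 points higher and apart from the young ones. The median width of the strongest peak was 332 ± 40.8 bp and 388 ± 3.62 bp (SD, n = 3 each). Both gave the smallest p that 20 assignments allow (exact permutation test, two-sided p = 0.1, adjusted p = 0.117). Percentile rank is taken within a list, and the lists differed in length. With lists cut to 27628 peaks each, which left 116 exon regions, the rank difference was −1.62 points. In the full lists the intron regions stood 10.6 points higher in middle-aged libraries. Their median peak width was 36.7 bp larger there, against 56.2 bp for the exon regions. The cause of the rank and width differences was not tested.

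Fold enrichment at all regions called throughout was higher in middle-aged libraries by 0.23 on the log2 scale, so each library was centred on its median over those 22403 regions. After centring, the median log2 fold of the exon regions was −0.26, −0.22 and −0.17 in young 1, 2 and 3, whereas middle-aged 1, 2 and 3 had −0.20, −0.22 and −0.22. The groups overlapped, with a difference of 0.0042 (exact permutation test, two-sided p = 0.8). The age difference of exon regions minus that of intron regions was 0.03 (exact permutation test, two-sided p = 0.1, adjusted p = 0.117). This contrast changed sign without young 3, where regions were selected anew and exon regions numbered 240.

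No single exon region passed the test for an age difference after centring. A shift shared by all regions, such as the 0.23 removed by centring, could not be seen in this test. In limma, 0 of 168 exon regions and 0 of 22403 regions (0%) had an adjusted p under 0.05, and the lowest adjusted p of an exon region was 0.539. At an unadjusted p under 0.05 there were 15 exon regions (8.93%, 6 higher and 9 lower in middle-aged cells) against 7.91% of all regions (3.05% higher and 4.86% lower). The groups did not overlap, on the centred scale, at 9 exon regions that were higher (5.36%) and 15 that were lower (8.93%), compared with 5.37% and 8.36% of all regions. The median log2 difference was −0.02, against −0.02 over all regions. The shares of the members therefore lay near the background. In simulated data with known changes the same fit recovered 42% of regions changed by 0.5 on the log2 scale and 100% of those changed by 1, with 10 false calls. The simulated noise was independent between libraries and regions, so these rates need not hold for the real libraries.

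The regions with the largest differences are given as values. C2cd5, a protein of insulin-stimulated vesicle traffic, had the largest positive one, with centred log2 folds of −0.77, −0.24 and −0.38 in young and 0.29, 0.26 and −0.34 in middle-aged libraries. Its groups overlapped, through middle-aged 3, and the difference was 0.53 ± 0.19 (SE, adjusted p = 0.566, limma). Itgb4, the integrin chain of hemidesmosomes, had −0.04, −0.36 and −0.20 in young and 0.09, 0.07 and 0.37 in middle-aged libraries. The groups did not overlap, and the difference was 0.38 ± 0.14 (SE, adjusted p = 0.572, limma). Gpr153, an orphan receptor, Pomc, the precursor of corticotropin, and Eps8l1, an actin adaptor, differed by 0.37, 0.37 and 0.36, and the groups overlapped at Pomc. Of these 5 regions all but C2cd5 were CpG-rich.

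In the other direction, the Stag1 region, on a cohesin subunit gene, had centred log2 folds of 0.12, 0.28 and 0.52 in young and −0.24, −0.25 and −0.14 in middle-aged libraries. These did not overlap, and the difference was −0.52 ± 0.13 (SE, adjusted p = 0.539, limma). Before centring, Stag1 folds were 7.79, 10.4 and 10.6 in young and 7.63, 7.64 and 8.17 in middle-aged libraries, which overlapped. Chsy1, a chondroitin sulfate synthase, was lower in middle-aged libraries on both scales. Its folds were 6.20, 6.59 and 6.01 in young and 5.37, 5.18 and 5.46 in middle-aged libraries, with a centred difference of −0.46 ± 0.12 (SE, unadjusted p = 0.00215 and adjusted p = 0.539, limma). Bbx, an HMG-box protein, and Spns3, a transporter of the spinster family, differed by −0.49 and −0.43 without overlap. Hnrnpul2, an RNA-binding protein, differed by −0.45 with overlapping groups. None of these 5 was CpG-rich.

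**Figure D4:**
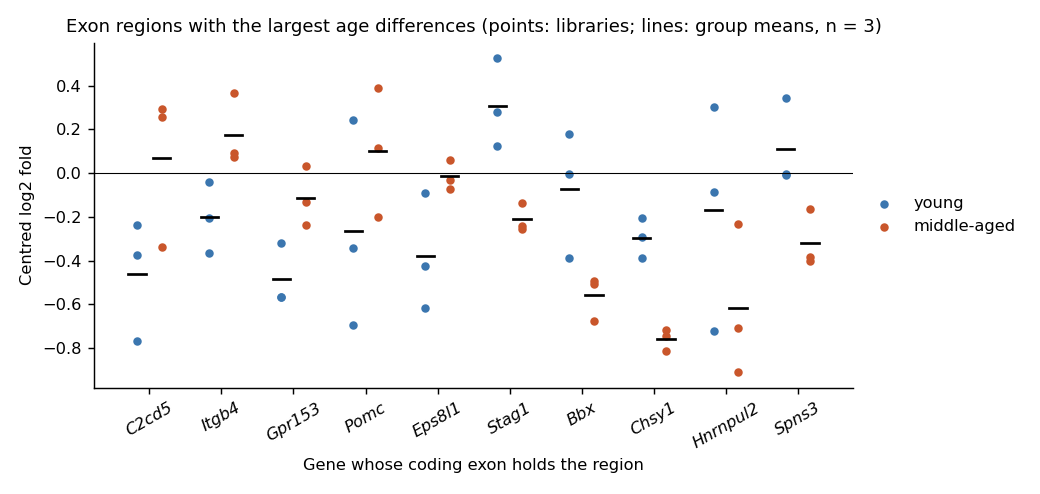
Centred log2 fold of the 5 exon regions with the largest positive and the 5 with the largest negative difference between middle-aged (orange) and young (blue) cells. Points are libraries and lines are group means (n = 3). The groups overlap at C2cd5, Pomc and Hnrnpul2, and no region passed the adjusted threshold.

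The 2 composition classes are given side by side by age, as a description without a test. CpG-rich exon regions had median centred log2 folds of −0.28, −0.26 and −0.14 in young and −0.11, −0.10 and −0.09 in middle-aged libraries, which did not overlap. The other exon regions had −0.24, −0.19 and −0.18 in young and −0.31, −0.25 and −0.28 in middle-aged libraries, also without overlap and in the opposite direction. CpG-rich minus other exon regions thus differed by 0.21 between the ages, with a range from 0.09 to 0.27 over 15 alternative settings. The difference was 0.13 over the 240 exon regions selected without young 3. With a −log10 q of at least 5, or with equally long lists, the age groups of this contrast overlapped. CpG-rich intron regions had −0.03, −0.14 and −0.06 in young and −0.03, −0.02 and −0.04 in middle-aged libraries, which overlapped. The young lists were shorter, at 27628 to 43941 peaks against 46364 to 48344, and with equally long lists the contrast was 0.09.

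**Figure D5:**
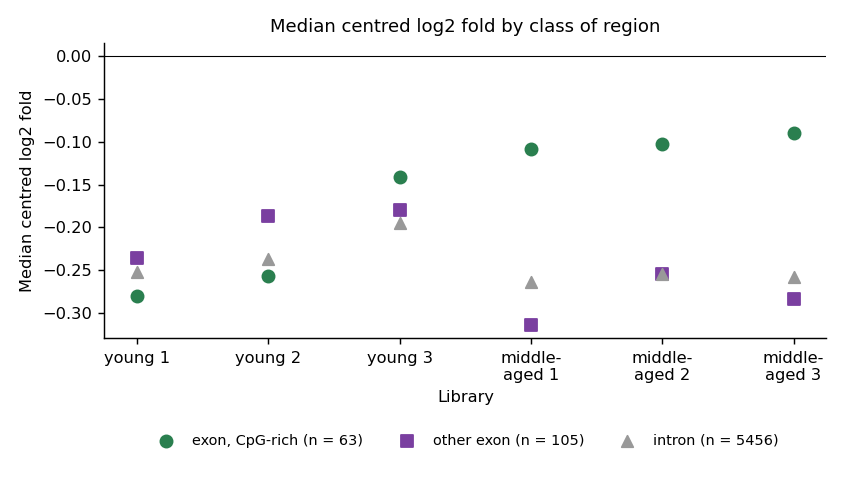
Median centred log2 fold in each library of CpG-rich exon regions (circles), other exon regions (squares) and intron regions (triangles). CpG-rich medians run from −0.28 to −0.14 in young and from −0.11 to −0.09 in middle-aged libraries, and those of the other exon regions from −0.24 to −0.18 and from −0.31 to −0.25.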

How the data were processed

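ATAC-seq peaks of 6 libraries (3 young, 3 middle-aged) were analysed. Reads were made with bcl2fastq, mapped by the authors to mm10 (Bowtie2), cleared of duplicates (Sambamba) and used to call peaks in each library (MACS). Whether reads were shifted for the transposase is not given in the sources used here. The deposited score is −log10 q as a whole number. The deposited fold is a linear ratio of summit pileup to local background, without a control library. The deposited −log10 p and −log10 q come from the authors' caller.

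The strongest peak of each library represented a region. Differences were fitted on centred log2 fold with limma 3.58.1 (R 4.3.3, Benjamini-Hochberg over 22403 regions, checked on simulated data) because DiffBind, used by the authors, needs reads. Library medians were compared by exact permutation tests, adjusted over 7 tests. Coding exons followed GENCODE, taking the principal, then longest, transcript. Summit pileups and backgrounds were solved from the fold and the −log10 p. Sequences came from GRCm38, and second copies were sought with blastn 2.17.0+ (at least 97% identity). Depth is known only in relative terms.

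Named were the 8 highest mean ranks, the 5 largest differences in each direction, the 4 widest regions, genes of lineage lists and regions next to the TSS limit. Members, lists and tests were chosen with earlier results of these data known. Alternatives included stricter peaks, other overlaps and start sites, equal lists, other scalings, a replicate block and leaving out each library. Alternatives for the CpG-rich class were chosen after seeing the data.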

Additional observations from a re-analysis of the deposited data

How the results depend on the processing

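Counts of called exon regions were 0 in limma under each alternative, and limma-trend called 1 of 22403 regions and 0 exon regions. The median log2 fold difference between the ages, near 0, became −0.0475 with a −log10 q of at least 5, −0.0311 with TSSs of all transcripts, −0.0121 with equally long lists and −0.0755 with summit pileup over background, and ran from −0.0465 to 0.0172 without each library. The rank difference became −1.62 with equally long lists and ran from 5.28 to 15.6 without each library. The width difference ran from 26.3 to 72.3 bp. The exon minus intron age contrast became −0.00874 with a −log10 q of at least 5 and −0.0239 with summit pileup, and ran from −0.0418 to 0.0469. The exon minus intron log2 fold passed its unadjusted test at 0.0631 (−log10 q of at least 5), 0.0736 (TSSs of all transcripts) and 0.0564 (equally long lists), and ran from −0.0156 to 0.0551. The rank excess was 2.3 with at least 50% of bases in CDS, which no longer passed, and ran from 0.236 to 2.61, where 5 libraries cannot pass. The number of exon regions was 102 with at least 50% of bases in CDS and ran from 166 to 240, the latter without young 3. Leaving out a library selected the regions anew, so values without a library rest on other sets of regions. In settings chosen after seeing the data, the CpG-rich share ran from 34.4% to 52.9%. The cause of these changes was not tested.

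Libraries with the same replicate number showed no shared deviation (correlations of deviations 0.0116, 0.0115 and −0.0185). This does not tell whether they were prepared together. With a replicate block 0 exon regions were called in limma and 16 had an unadjusted p under 0.05. Of the 94 coding-exon regions called in 5 libraries, young 3 lacked 71 and young 1, the deepest library, lacked 14.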
